A study of Mus musculus with 18 samples.

Results

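The genes described here are 9 of the 45706 genes in a count table from mouse bone marrow-derived macrophages. They are the matrix metalloproteinases Mmp9, Mmp12, Mmp13 and Mmp14, their tissue inhibitors Timp1 and Timp2, and the plasminogen system genes Plau, Plaur and Serpinb2. The genes were taken by symbol, each symbol matched 1 row, and all 9 passed the filter on low counts that left 11308 genes for testing. Poly(A) RNA was sequenced in 18 libraries, 9 of wild-type and 9 of RelA-TA-KI macrophages, from C57BL/6 mice whose age the labels give as 12 days. Each genotype had 1 unstimulated library and 1 library at 0.5, 1, 3 and 8 h after LPS at 100 ng/ml or TNF at 10 ng/ml. LPS is a bacterial cell wall component sensed through TLR4, and TNF is an inflammatory cytokine. RelA-TA-KI is a knock-in at RelA, a subunit of the transcription factor NF-kB, and the labels do not spell out the allele. A gene count does not show the allele, so the genotype labels were taken as given. All cells, the unstimulated ones included, had grown in medium with 30% L929-conditioned medium and were stimulated on day 7. No condition was replicated within a genotype, and the labels name no separate animals or cultures, so p-values measure only the spread between these libraries, which may be technical.

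Matrix metalloproteinases are zinc enzymes that are made as inactive precursors and cut collagen, elastin and other matrix proteins. Tissue inhibitors of metalloproteinases bind and block the active enzymes. In the plasminogen system, urokinase (Plau) turns plasminogen into plasmin, which dissolves fibrin and can activate metalloproteinase precursors, the urokinase receptor (Plaur) holds urokinase at the cell surface, and plasminogen activator inhibitor 2 (Serpinb2) blocks it. Macrophages use these proteins to remodel matrix and to move through tissue.

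Libraries held 4663650 to 6721917 counted reads, and levels are given below as CPM, counts scaled to a common library size after TMM normalization. The macrophage markers (Adgre1, Csf1r, Cd68, Itgam, Lyz2, Mertk, Fcgr1 and Cd14) were all detected and summed to 9361 to 14653 CPM in the wild-type and 9018 to 15678 CPM in the knock-in. Of these 8 genes, Fcgr1 (0.92), Cd68 (0.36) and Itgam (0.34) were called higher in the knock-in and Csf1r (-0.24) and Lyz2 (-0.18) lower on the log2 scale, so a similar sum does not mean that each marker was alike. Summed markers of 3 other cell types were lower in the knock-in in 9 of 9 pairs. Summed CPM of the 8 stromal markers (collagens, Sparc, Postn and others) were 129 to 247 in the wild-type and 16.4 to 87.6 in the knock-in. Of these markers, 6 of the 6 tested were lower in the knock-in. The collagen Col3a1, not among these 6, was higher in the knock-in in 7 of 9 pairs, with a median ratio of 1.30. The 11 neutrophil markers summed to 229 to 470 CPM in the wild-type and 166 to 343 CPM in the knock-in, and 8 of the 10 tested were lower. Without Mmp8, which was higher, the knock-in to wild-type ratio of this sum was 0.412 to 0.810. The dendritic cell markers summed to at most 22.6 CPM in the wild-type and 22.4 CPM in the knock-in, and those of osteoclasts to 127 to 241 and 149 to 257 CPM. Of the defining markers, the stromal Lum, the osteoclast Calcr and the mast cell Mcpt4, Tpsb2 and Cma1 were at 0 in all libraries. The 5 mast cell markers summed to 1.94 to 10.1 CPM in the wild-type and 0.886 to 32.5 CPM in the knock-in. That knock-in maximum was at 8 h of TNF, where 4 of the 5 markers were at 0 and the sum was that of Kit alone.

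In unstimulated cells, urokinase was the most abundant of the 9 transcripts per length. In the wild-type library, CPM per kilobase of exon (RPKM) were 237 for Plau, 91.5 for Timp2, 44.6 for Mmp12, 38.2 for Plaur and 10.6 for Timp1. The other 4 genes lay at 2.31 RPKM for Mmp13, 2.24 for Mmp14, 1.42 for Serpinb2 and 0.979 for Mmp9, a range within which neighbours rest on few reads (27 to 78 per gene). After 8 h of LPS the order had turned over: wild-type Mmp13 stood first at 202 RPKM, followed by Mmp14 at 136 and Plaur at 76.1, while Plau was sixth at 49.1 RPKM. After 8 h of TNF, wild-type Plau was still first at 179.9 RPKM and Mmp14, at 46.3 RPKM, was the only gene of the initially low 4 above 5 RPKM. In knock-in cells Mmp12 ranked second after 8 h of LPS at 171 RPKM, behind Mmp13 at 373, and first after 8 h of TNF at 142 RPKM, ahead of Plau at 119. Each of these levels comes from 1 library, so an order between close neighbours has no replicate check.

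**Figure D1:**
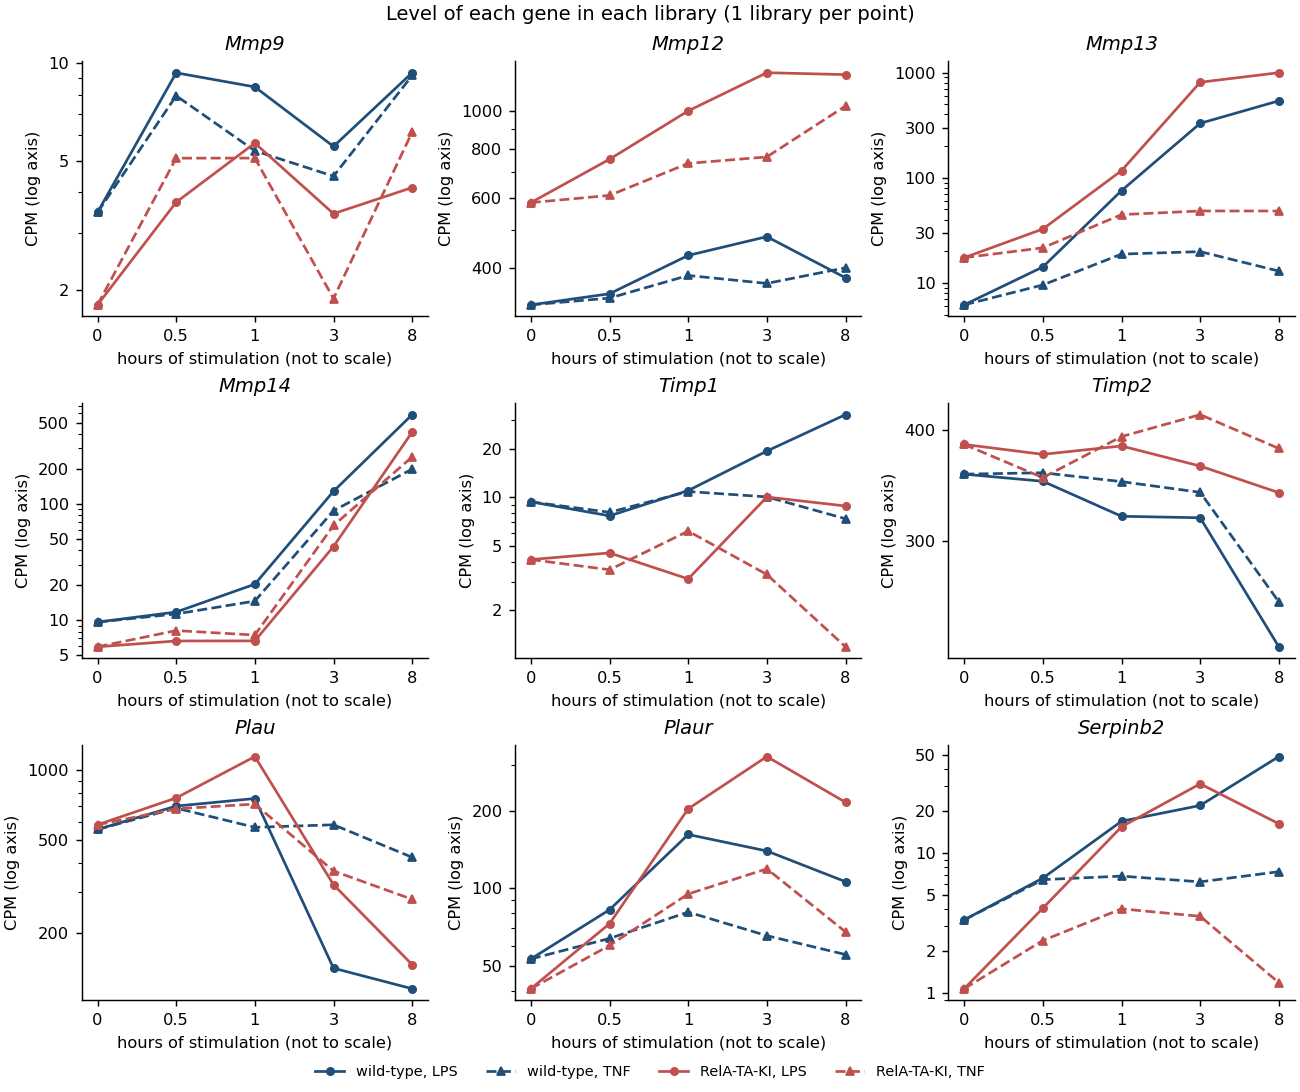
CPM of each of the 9 genes on a log axis against hours of stimulation, 1 library per point, with wild-type in blue, RelA-TA-KI in red, LPS as solid lines with circles and TNF as dashed lines with triangles; the unstimulated library starts both lines of a genotype. Mmp13 and Mmp14 cover the widest ranges, from 6.19 to 998 and from 5.92 to 585 CPM, and the knock-in lines of Mmp12 lie above all wild-type points.

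LPS raised 7 of the 9 genes and lowered 1 (edgeR quasi-likelihood test over the 4 times, both genotypes together, Benjamini-Hochberg adjusted p under 0.05), beside 35.8% of all tested genes called higher and 36.4% called lower. The median change of the 9 at each gene's time of largest change was 1.56 on the log2 scale, against -0.20 for all tested genes. In bulk RNA, fewer cells of a type and less RNA per cell cannot be told apart. By time, no gene of the 9 passed at 0.5 h (0.920% of all tested genes did, and 2 of the 9 were under an unadjusted p of 0.05; DESeq2 called 1 of them, Mmp13, and limma-voom none). At 1 h 4 were higher (6.84% of tested genes were called in either direction), at 3 h 6 were higher and 1 lower (47.6%), and at 8 h 7 were higher and 2 lower (67.7%). With such shares called at 3 and 8 h, the counts of the 9 at those times say little about them in particular.

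Mmp13 (ENSMUSG00000050578.9, chr9:7272514-7283333, plus strand, mm10), a collagenase that cuts fibrillar collagen, changed most. Wild-type libraries held 6.19 CPM unstimulated and 14.2, 75.4, 329 and 539 CPM after 0.5, 1, 3 and 8 h of LPS, and knock-in libraries 17.4, then 32.5, 117, 809.7 and 998 CPM. Both genotypes climbed at each step, and from 1 h on both LPS libraries lay above every unstimulated and TNF library. The fitted change was 3.16 ± 0.23 (SE) at 1 h and 6.12 ± 0.25 at 8 h on the log2 scale, a 69.6-fold rise (adjusted p = 4.9e-10). Set against its own unstimulated library, the 8 h LPS level was 87.1-fold higher in wild-type and 57.4-fold higher in knock-in cells.

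Mmp14 (ENSMUSG00000000957.9, chr14:54431612-54441265, plus strand), the membrane-anchored protease that activates the Mmp2 precursor, rose as far but later. It was at 9.65, 11.8, 20.4, 128 and 585 CPM in the wild-type and at 5.92, 6.64, 6.65, 43.0 and 414 CPM in the knock-in over 0, 0.5, 1, 3 and 8 h of LPS. The knock-in level was flat through 1 h, while the wild-type library at 1 h stood at 2.12-fold its unstimulated level. Most of the rise in both genotypes fell between 1 and 8 h. The change was 3.38 ± 0.44 at 3 h and 6.02 ± 0.45 at 8 h on the log2 scale (adjusted p = 5.0e-07), 64.7-fold.

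The other 2 proteases changed less. Mmp12 (ENSMUSG00000049723.12, chr9:7344381-7369499, plus strand), macrophage elastase, was at 323, 345, 431, 480.5 and 378 CPM in the wild-type and at 586, 754, 999, 1248 and 1234 CPM in the knock-in along the LPS course. Its largest change was 0.83 ± 0.17 at 3 h (adjusted p = 0.0014), and at 8 h it was 0.67 ± 0.17. Scaled to library totals instead, these were 0.30 and -0.29, and neither passed. Mmp9 (ENSMUSG00000017737.2, chr2:164940780-164955850, plus strand), gelatinase B, had 9 to 62 counts per library. Its levels were 3.46, 9.36, 8.46, 5.54 and 9.37 CPM in the wild-type and 1.79, 3.72, 5.67, 3.43 and 4.13 CPM in the knock-in. All 8 LPS libraries lay above the unstimulated library of their genotype, with a change of 1.42 ± 0.30 at 1 h (adjusted p = 0.0095). The change of Mmp9 at 8 h, 1.33 ± 0.33, passed, but with library totals it was 0.39 and did not.

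Among the inhibitors, Timp1 rose and Timp2 did not pass the test over the 4 times. Timp1 (ENSMUSG00000001131.9, chrX:20870166-20874735, plus strand) held 9.40, 7.70, 11.0, 19.4 and 32.6 CPM in the wild-type and 4.12, 4.53, 3.13, 10.1 and 8.86 CPM in the knock-in. The 3 and 8 h libraries were the highest of each genotype, and the change was 1.56 ± 0.30 at 8 h (adjusted p = 3.5e-04). The stromal marker sum moved alongside, from 169.7 to 247 CPM in the wild-type and from 58.1 to 76.5 CPM in the knock-in between 0 and 8 h of LPS, and its part in the result was not tested. Scaling to library totals brought the change of Timp1 at 8 h to 0.63. Its adjusted p was then 0.054 over the 4 times and 0.076 at 8 h alone. Timp2 (ENSMUSG00000017466.7, chr11:118301069-118355740, minus strand), the more abundant inhibitor, lay between 228 and 357 CPM in the wild-type and between 339.9 and 385 CPM in the knock-in along the LPS course, with its lowest level of each genotype at 8 h. Its change at 8 h was -0.40 ± 0.13, past the threshold at that time alone (adjusted p = 0.015) but not over the 4 times (adjusted p = 0.090), and with library totals it was -1.36 and passed both.

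The plasminogen genes moved apart. Plau (ENSMUSG00000021822.2, chr14:20836662-20843388, plus strand) was the only one of the 9 called lower over the 4 times. Wild-type libraries held 555, 699.6, 754, 141 and 115 CPM and knock-in libraries 582, 758, 1142, 321 and 146 CPM over 0 to 8 h of LPS. The level at 1 h was the highest of the course in both genotypes, but that early difference did not pass (0.72 ± 0.36, adjusted p = 0.34). The change was -1.33 ± 0.36 at 3 h and -2.13 ± 0.38 at 8 h (adjusted p = 4.8e-04), 4.38-fold. Plaur (ENSMUSG00000046223.9, chr7:24462500-24475873, plus strand) went the other way, from 53.3 to 82.7, 162, 139.8 and 106 CPM in the wild-type and from 40.9 to 73.0, 204, 325 and 216 CPM in the knock-in. It peaked at 1 h in wild-type and at 3 h in knock-in cells, and the fitted change at 3 h was 2.20 ± 0.36 (adjusted p = 5.5e-04). The change of Plaur at 8 h, 1.69 ± 0.36, passed, but with library totals it was 0.72 and did not. Serpinb2 (ENSMUSG00000062345.8, chr1:107511423-107535478, plus strand) stood at 3.34, 6.64, 16.9, 21.9 and 49.1 CPM in the wild-type and at 1.08, 4.05, 15.5, 31.3 and 16.2 CPM in the knock-in. Its change of 3.77 ± 0.57 at 8 h (adjusted p = 1.2e-04) rests on unstimulated libraries with 27 and 6 reads.

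**Figure D2:**
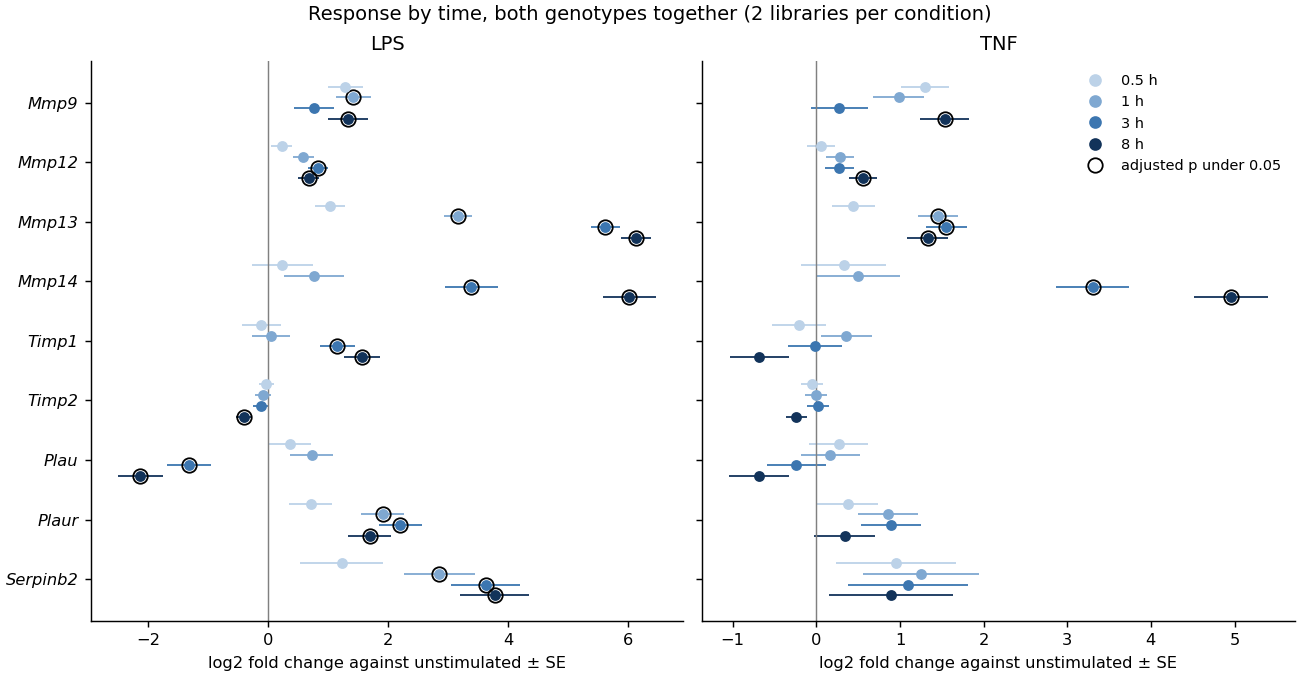
Log2 fold change against unstimulated cells (x axis) with its standard error for each of the 9 genes after LPS (left) and TNF (right), both genotypes together with 2 libraries per condition; darker points are later times and rings mark an adjusted p under 0.05. Mmp13 reaches 6.12 with LPS but 1.56 with TNF, Mmp14 reaches 6.02 and 4.96, and Plau is the only gene that LPS took below -1.

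Promoter windows of 250 bases before to 50 bases after an annotated start (RefSeq, GRCm38.p6) were given for 7 of the 9 genes, in 9 windows, and were searched on both strands for the AP-1 motif TGANTCA, the kB motif GGNNNTTCC and TATAAA. A window with an AP-1 match is shown for each of the 4 genes that have one. These genes include the 3 with the largest differences between LPS and TNF averaged over the 4 times, Mmp13, Serpinb2 and Plaur. At 8 h alone, Timp1 (2.24 on the log2 scale) and Plau (-1.45) differed more than Plaur (1.35). The Mmp14 window is shown because that gene moved with both stimuli and has none of the 3 motifs. Matches are in capitals, every window is on the plus strand, and Mmp12 and Serpinb2 have 2 annotated starts each, of which 1 is printed. The other Mmp12 window, which covers the first base of the gene's span, holds none of the 3 motifs. Those of Timp1 and Timp2 hold none either. The other Serpinb2 window overlaps the printed one and holds the same AP-1 and TATAAA matches.
Mmp13, chr9:7272264-7272563: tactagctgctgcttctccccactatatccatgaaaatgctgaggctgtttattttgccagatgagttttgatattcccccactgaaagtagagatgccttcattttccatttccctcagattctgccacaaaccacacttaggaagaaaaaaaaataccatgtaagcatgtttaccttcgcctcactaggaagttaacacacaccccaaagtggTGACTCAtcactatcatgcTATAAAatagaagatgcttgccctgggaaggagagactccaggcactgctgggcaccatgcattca
Mmp12, chr9:7347124-7347423: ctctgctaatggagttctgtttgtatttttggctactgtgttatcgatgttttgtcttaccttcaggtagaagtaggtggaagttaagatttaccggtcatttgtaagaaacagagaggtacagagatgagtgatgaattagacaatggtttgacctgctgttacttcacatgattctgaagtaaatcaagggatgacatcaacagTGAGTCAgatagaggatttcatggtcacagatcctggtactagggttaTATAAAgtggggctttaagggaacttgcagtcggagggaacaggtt
Plaur, chr7:24462233-24462532: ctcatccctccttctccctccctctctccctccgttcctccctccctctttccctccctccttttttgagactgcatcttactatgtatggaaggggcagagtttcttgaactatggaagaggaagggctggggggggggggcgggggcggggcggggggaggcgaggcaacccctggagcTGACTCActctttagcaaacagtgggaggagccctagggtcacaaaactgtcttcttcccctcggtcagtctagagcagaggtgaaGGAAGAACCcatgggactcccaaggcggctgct
Serpinb2, chr1:107511173-107511472: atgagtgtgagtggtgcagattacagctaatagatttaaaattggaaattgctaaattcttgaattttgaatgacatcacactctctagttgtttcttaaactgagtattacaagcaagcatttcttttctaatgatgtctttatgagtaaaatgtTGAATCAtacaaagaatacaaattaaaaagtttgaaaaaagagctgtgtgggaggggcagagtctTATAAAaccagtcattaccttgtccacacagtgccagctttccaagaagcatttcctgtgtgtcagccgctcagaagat
Mmp14, chr14:54431348-54431647: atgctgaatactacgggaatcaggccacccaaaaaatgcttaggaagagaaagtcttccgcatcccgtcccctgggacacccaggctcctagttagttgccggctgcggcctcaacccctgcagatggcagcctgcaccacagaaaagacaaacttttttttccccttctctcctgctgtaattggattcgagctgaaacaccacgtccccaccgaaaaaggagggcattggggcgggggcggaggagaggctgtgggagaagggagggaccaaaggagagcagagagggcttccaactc

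Counted from the annotated start, the AP-1 match, whose motif reads the same on either strand so that 1 site matches both, lay at -35 to -29 in Mmp13, -44 to -38 in Mmp12, -69 to -63 in Plaur and -94 to -88 in Serpinb2. TGANTCA was held by 7.81% of all 32851 windows, GGNNNTTCC by 18.5% and TATAAA by 13.6%. The kB match was in Plaur alone, on the minus strand at 18 to 26. TATAAA lay at -16 to -11 in the Mmp13 window and at -29 to -24 in the printed Serpinb2 window. In the printed Mmp12 window it lay at 5 to 10, after the annotated start. Matches describe the letters of these windows and were not tested for binding.

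The TNF comparisons use the same 2 unstimulated libraries as the LPS comparisons. TNF raised 3 of the 9 genes, Mmp14, Mmp13 and Mmp9, and lowered none (16.7% of all tested genes were called higher and 13.6% lower over the 4 times). No gene of the 9 passed at 0.5 h (0.380% of tested genes in either direction, and 1 of the 9 under an unadjusted p of 0.05, with none by DESeq2 or limma-voom). The median change of the 9 was 0.89 on the log2 scale, against -0.08 for all tested genes. At 1 h 1 was higher (1.07%), at 3 h 2 were higher (13.5%) and at 8 h 4 were higher (31.9%). Mmp14 was the strongest: wild-type libraries held 11.3, 14.6, 87.4 and 199 CPM and knock-in libraries 8.15, 7.47, 65.2 and 253 CPM over 0.5 to 8 h. As with LPS, most of the rise came after 1 h, and at 8 h the change was 4.96 ± 0.44 on the log2 scale (31.1-fold, adjusted p = 1.2e-05). Against its own unstimulated library, Mmp14 at 8 h of TNF was 20.6-fold higher in wild-type and 42.8-fold higher in knock-in cells.

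Mmp13 stayed within a narrow band after TNF, at 9.57, 18.8, 19.9 and 13.0 CPM in the wild-type and at 21.6, 44.6, 48.3 and 48.3 CPM in the knock-in. Every TNF library lay above its unstimulated library, and the change was 1.46 ± 0.24 at 1 h and 1.56 ± 0.24 at 3 h (adjusted p = 0.0015). Mmp9 was at 7.95, 5.37, 4.48 and 9.18 CPM in the wild-type and at 5.10, 5.10, 1.88 and 6.14 CPM in the knock-in, with 9 to 54 counts per library, and its change at 8 h was 1.53 ± 0.29 (adjusted p = 0.0012). Mmp12 was higher at 8 h alone (0.56 ± 0.17, adjusted p = 0.024), with 401 CPM in the wild-type and 1028 CPM in the knock-in, and did not pass over the 4 times or, at 8 h, with library totals (0.31). The other 5 genes did not pass in any TNF comparison with TMM scaling: at 8 h, Timp1 differed by -0.68 ± 0.35, Timp2 by -0.24 ± 0.13, Plau by -0.68 ± 0.36, Plaur by 0.34 ± 0.36 and Serpinb2 by 0.90 ± 0.74. Timp2 passed with library totals, at -0.49 (adjusted p = 0.020 over the 4 times).

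Compared at matched times, LPS libraries were above TNF libraries for 5 of the 9 genes and below for none (23.7% of tested genes were called higher after LPS and 25.2% lower). The median difference of the 9 was 0.33 on the log2 scale, against -0.02 for all tested genes. Mmp13 differed most, by 2.78 ± 0.11 on the log2 scale averaged over the 4 times (6.88-fold, adjusted p = 5.7e-09), and by 4.79 ± 0.23 at 8 h. Serpinb2 differed by 1.82 ± 0.28 (adjusted p = 2.8e-04): TNF libraries held 6.24 to 7.38 CPM in the wild-type and 1.19 to 4.01 CPM in the knock-in, below the LPS library of the same genotype and time in all 8 pairs. Plaur differed by 1.01 ± 0.18 (adjusted p = 8.1e-04), with TNF levels of 64.0, 81.0, 65.6 and 55.5 CPM in the wild-type and 60.1, 95.2, 119 and 67.9 CPM in the knock-in. Timp1 differed by 0.80 ± 0.16 (adjusted p = 0.0011), which fell to 0.31 and missed the threshold without the 8 h LPS pair and without the 8 h TNF pair. At 8 h of TNF, Timp1 stood at 7.38 CPM in wild-type and 1.19 CPM, or 6 reads, in knock-in cells, and the stromal marker sum was then at its lowest in each genotype, 129 and 16.4 CPM; its part in the difference was not tested. The difference of Mmp12, 0.28 ± 0.09 (adjusted p = 0.014), was lost without any of 4 pairs (LPS 1 h, LPS 3 h, TNF 1 h or TNF 3 h), with no filter on low counts, and with library totals, which gave -0.02.

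Mmp14 did not pass between the stimuli on average (0.33 ± 0.21, adjusted p = 0.23), and Plau missed the threshold (-0.47 ± 0.18, adjusted p = 0.053) although DESeq2, limma-voom, library totals and edgeR without any of the 0.5 h or 1 h pairs called it lower. By time, none of the 9 passed at 0.5 h (0.0442% of tested genes did, 1 of the 9 was under an unadjusted p of 0.05, and DESeq2 and limma-voom called none), 1 was higher after LPS at 1 h (Mmp13, beside 1.20%), 5 were higher and 1 lower at 3 h (31.3%), and 5 were higher and 1 lower at 8 h (58.4%). The gene lower after LPS at both late times was Plau, at -1.08 ± 0.37 and -1.45 ± 0.37. At 8 h Mmp14 was among those higher, at 1.06 ± 0.34 (adjusted p = 0.020), a value of 0.35 with library totals. That scaling lowered the median log2 change of all genes by 0.95 in the comparison of LPS with unstimulated cells, by 0.25 in that of TNF and by 0.31 between the stimuli. It also took the share of called genes that were higher from 49.6% to 20.1%, from 55.1% to 31.7% and from 48.5% to 14.2% in the same order. The counts for the 9 genes became 6 higher and 2 lower, 3 and 1, and 4 and 2.

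Between genotypes, averaged over the 9 conditions, 3 of the 9 genes were higher and 3 lower in knock-in cells, beside 10.3% of all tested genes called higher and 9.46% called lower. The median log2 difference of the 9 was 0.15, against -0.0047 for all tested genes. Mmp12 and Mmp13 were higher in 9 of 9 pairs. Mmp12 lay between 323 and 480.5 CPM in the wild-type and between 586 and 1248 CPM in the knock-in libraries, so that every knock-in library was above every wild-type library, and the difference was 1.17 ± 0.08 (2.25-fold, adjusted p = 9.3e-07). The knock-in to wild-type ratio of Mmp13 ran from 1.55 at 1 h of LPS to 3.73 at 8 h of TNF, and the difference was 1.19 ± 0.10 (adjusted p = 9.2e-06). Timp2 was higher in 8 of 9 pairs by a small amount, 0.25 ± 0.06 (adjusted p = 0.013), with a median ratio of 1.14.

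Timp1 and Mmp9 were lower in 9 of 9 pairs. Timp1 differed by -1.32 ± 0.15 (adjusted p = 5.4e-05), with a ratio of 0.589 at most and 0.161 at least. Mmp9 differed by -0.76 ± 0.14 (adjusted p = 0.0016), with ratios from 0.398 to 0.949. Over the same pairs the stromal marker sum had a knock-in to wild-type ratio of 0.128 to 0.472, the neutrophil sum of 0.585 to 0.963 and the macrophage sum of 0.927 to 1.07. Across the 18 libraries, Pearson's r with the stromal sum was 0.88 for Timp1, 0.48 for Mmp9, 0.56 for Serpinb2 and -0.76 for Mmp12. With the neutrophil sum it was 0.72, 0.48, 0.71 and -0.44 in the same order. Differences in genotype, stimulus and depth between the libraries enter each r. For the other genes called between genotypes, Timp2, Mmp13 and Mmp14, r was -0.59, -0.07 and 0.01 with the stromal sum. With the neutrophil sum it was -0.34, 0.225 and -0.03 in the same order. The part of these markers in the genotype differences was not tested. Timp1 lies inside Syn1 on the opposite strand with no shared exon bases, and Syn1 differed the other way, by 0.97.

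Mmp14 was lower in 8 of 9 pairs, at -0.65 ± 0.20 on the log2 scale (adjusted p = 0.041). The call was lost when any single pair other than the 8 h TNF pair was left out and with no filter on low counts (adjusted p 0.061 to 0.13). Knock-in levels were furthest below at 1 and 3 h of LPS, with ratios of 0.326 and 0.335, and at 8 h of TNF the ratio was 1.27. Serpinb2 was lower in 8 of 9 pairs and did not pass (-0.73 ± 0.26, adjusted p = 0.079), while DESeq2 called it (adjusted p = 0.0055), as did edgeR without the LPS 3 h pair (-1.04). Plaur (0.38 ± 0.17, adjusted p = 0.14) and Plau (0.15 ± 0.17, adjusted p = 0.61) each were higher in 6 of 9 pairs and did not pass.

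**Figure D3:**
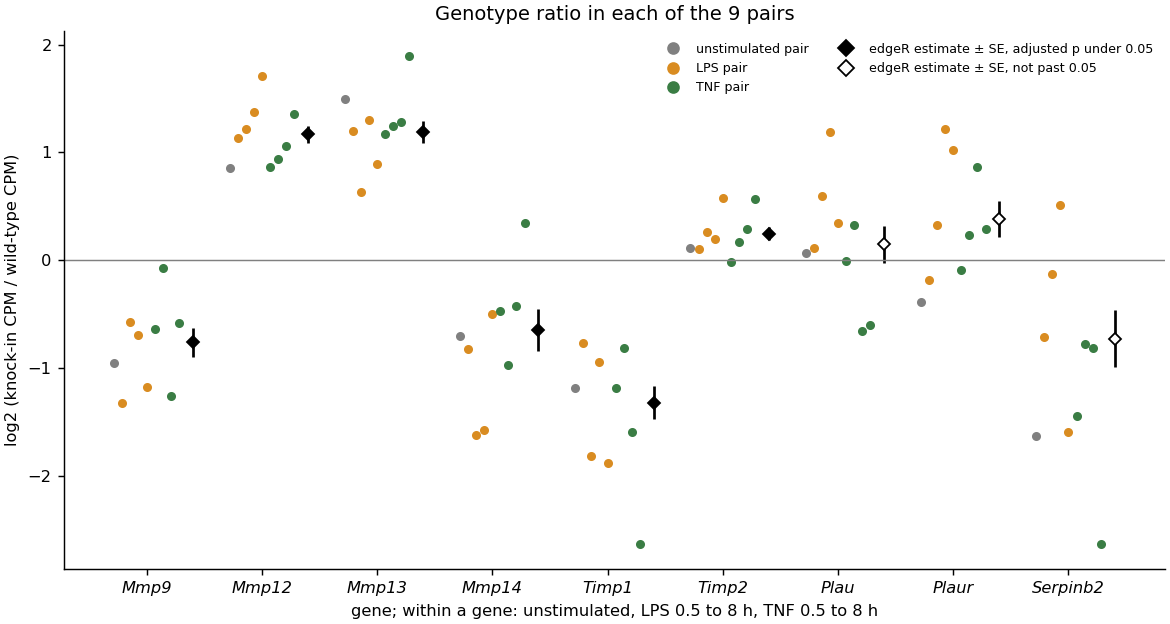
Log2 ratio of knock-in to wild-type CPM (y axis) for each of the 9 genes, with 1 point per pair of libraries in the order unstimulated (grey), LPS 0.5 to 8 h (orange) and TNF 0.5 to 8 h (green), and the edgeR estimate with its standard error as a diamond, filled where the adjusted p is under 0.05. All 9 points of Mmp12 and Mmp13 lie above 0 and all 9 of Timp1 and Mmp9 below it. Mmp14, Timp2, Plau, Plaur and Serpinb2 have points on both sides.

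Within LPS, 2 genes were higher and 3 lower in the knock-in (5.47% and 4.52% of tested genes), and within TNF 2 were higher and 1 lower (2.41% and 2.91%). Mmp12 was higher by 1.36 ± 0.10 after LPS and 1.06 ± 0.10 after TNF, and Mmp13 by 1.00 ± 0.12 and 1.40 ± 0.14. Timp1 was lower, at -1.33 ± 0.24 and -1.36 ± 0.27, the second of which missed the threshold without the TNF 3 h pair (-1.28) or the TNF 8 h pair (-1.15). Mmp9 was lower after LPS, at -0.94 ± 0.21 (adjusted p = 0.015), a call that was lost without the LPS 0.5 h pair (-0.77), and its value after TNF was -0.57 ± 0.20 (adjusted p = 0.14). Mmp14 was lower after LPS, at -1.06 ± 0.24 (adjusted p = 0.027), lost without the LPS 1 h pair (-0.95) or the LPS 3 h pair (-0.83) and with no filter on low counts, and its value after TNF was -0.25 ± 0.24 (adjusted p = 0.66).

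The genotype difference itself was compared between the stimuli and between late and early times. None of the 9 genes passed in LPS minus TNF, and neither did any other tested gene (0.00%; edgeR). There, 578 genes and 2 of the 9, Plau (0.79 ± 0.28) and Mmp14 (-0.81 ± 0.34), were under an unadjusted p of 0.05, and DESeq2 called 4 genes and limma-voom none, of which none was among the 9. Plau was higher in the knock-in in 4 of 4 LPS pairs, with ratios up to 2.28, and in 1 of 4 TNF pairs. In 3 and 8 h minus 0.5 and 1 h, 0.398% of tested genes and none of the 9 passed, with 3 of the 9 under an unadjusted p of 0.05 (Plaur, Mmp12 and Timp2), 1 called by DESeq2 and none by limma-voom. That one was Plaur, at 0.78 ± 0.19 with an adjusted p of 0.15 by edgeR and 0.041 by DESeq2, and edgeR also called it without the TNF 8 h pair (0.96). Its knock-in libraries were above wild-type at 1, 3 and 8 h of both stimuli, with the highest ratio, 2.32, at 3 h of LPS. With library totals, the share of called genes that were higher in the knock-in went from 52.1% to 27.9% over the 9 conditions, from 54.8% to 39.6% after LPS, from 45.3% to 29.1% after TNF and from 80% to 65.5% for late minus early, and the numbers of the 9 genes called higher and lower in the first 3 were 3 and 3, 2 and 3, and 2 and 1, as with TMM.

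Other metalloproteinase genes also differed by genotype, and are grouped here by position. Of 23 metalloproteinase genes listed, the 4 described above included, 5 were at 0 in all libraries and 11 were tested. A cluster of 10 of them spans bases 7272514 to 7699585 of chromosome 9 (mm10), and 5 of these were tested. In the knock-in 4 of the 5 were higher and none was lower, beside 10.3% and 9.46% of all tested genes: Mmp12, Mmp13, Mmp27 (0.47 ± 0.14, adjusted p = 0.027) and Mmp8, the neutrophil collagenase (0.22 ± 0.06, adjusted p = 0.018). The fifth, Mmp10, was at 1.05 ± 0.37 (adjusted p = 0.061). On other chromosomes, Mmp2, the gelatinase that Mmp14 activates, was lower, at -1.88 ± 0.21 (adjusted p = 4.5e-05) in 9 of 9 pairs, from 3.68 to 11.6 CPM in wild-type to 0.198 to 2.15 CPM in knock-in cells, and Mmp19 was higher by 0.43 ± 0.09. Mmp25 (0.60 ± 0.26, adjusted p = 0.13) and Mmp28 (0.68 ± 0.38, adjusted p = 0.24) did not pass. Whether the cluster differed from the other metalloproteinase genes was not tested. Mmp8 stands in the neutrophil marker list, of which it was the 1 member called higher.

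**Figure D4:**
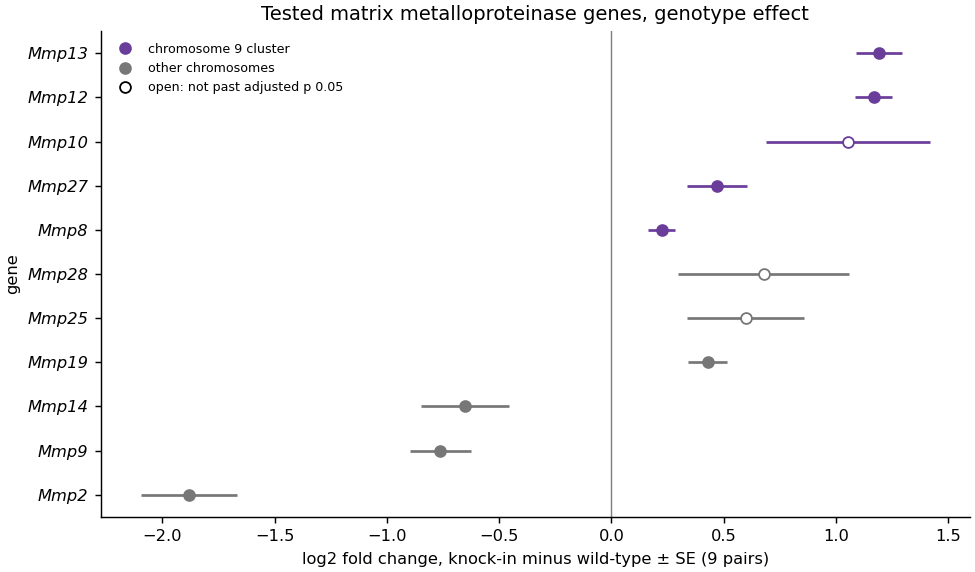
Genotype difference (log2, knock-in minus wild-type, with its standard error over 9 pairs) of the 11 tested metalloproteinase genes, with the chromosome 9 cluster in purple, genes elsewhere in grey and open symbols for an adjusted p of 0.05 or more. The 5 cluster genes lie between 0.22 and 1.19, and of the 6 others Mmp2, Mmp9 and Mmp14 lie between -1.88 and -0.65 and Mmp19, Mmp25 and Mmp28 between 0.43 and 0.68.

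The other genes of the pathway were taken from lists of other metalloproteinases, inhibitors, plasminogen genes, ADAM proteases, cathepsins and clade B serpins. The counts after LPS stand beside 35.8% of all tested genes called higher and 36.4% lower. After LPS, 2 of 7 tested other metalloproteinases were higher and 2 lower, the latter Mmp19 (-0.95 at 3 h) and Mmp8 (-0.65 at 8 h). The 2 that were higher, Mmp25 and Mmp28, were too low on average for the naming rule and are named after their values were seen. Mmp25, a membrane-anchored protease, went from 0.124 CPM unstimulated to 51.7 CPM at 8 h in wild-type and from 0.538 to 107 CPM in knock-in cells. Its unstimulated levels rest on only a few reads. Mmp28 changed by 2.72 at 8 h. Of 6 tested plasminogen genes 3 were higher and none lower: the annexin complex genes S100a10 (1.48) and Anxa2 (1.10), which bind plasminogen at the cell surface, and the plasminogen receptor Plgrkt (1.39), all at 8 h. Cathepsins and cystatins, the lysosomal proteases and their inhibitors, were higher in 11 of 12, led by Cst7 (5.32) and Ctsh (2.41). ADAM proteases were higher in 4 and lower in 2 of 10, with Adam17, the protease that releases TNF from the membrane, at 1.41 and Adamts1 at 2.03 (1 h). The aggrecan-cutting Adamts4, also named after its values were seen, stood out at 3 h, with 206.9 CPM in the wild-type and 20.8 CPM in the knock-in against about 0.5 CPM unstimulated. Clade B serpins were higher in 3 and lower in 1 of 6, with Serpinb9, the granzyme B inhibitor, at 3.58 and Serpinb8 at -1.47. Of the 2 tested inhibitors, Timp3 (0.90 at 3 h, adjusted p = 0.14) and Reck (0.69 at 0.5 h, adjusted p = 0.55) did not pass over the 4 times by edgeR, where neither was under an unadjusted p of 0.05. At 3 h alone Timp3 passed (0.90 ± 0.30, adjusted p = 0.027).

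After TNF, 7 of 12 cathepsin and cystatin genes were higher (Cst7 at 2.86 and Ctsz at 0.83, both at 8 h). So were 2 of 10 ADAM genes, Adam17 (1.41 at 8 h) and Adamts1 (0.88 at 0.5 h). Mmp8 (-0.89), Timp3 (-1.18), Serpine2 (-1.28) and Serpinb6a (-0.39) were lower at 8 h. Of the plasminogen genes 1 of 6 was higher, Anxa2 (0.58), and of the other metalloproteinases 1 of 7, Mmp25 (2.98). The numbers called in these lists stand beside the 16.7% and 13.6% of all tested genes given above.

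The pathway genes named for their genotype difference were chosen after their values were seen, and their counts stand beside 10.3% of all tested genes called higher and 9.46% lower. In knock-in cells, those lower than wild-type included the inhibitor Timp3 (-0.96 ± 0.15, 9 of 9 pairs). Its ratio lay on the same side as those of Timp1, Mmp2 and the stromal marker sum in all 9 pairs. All 4 ADAM genes that passed were lower, Adamts4 (-2.67), Adamts1 (-1.31), Adam19 (-1.03) and Adam17 (-0.51), of 10 tested. The 4 of 12 cathepsin and cystatin genes that passed were higher, led by Ctsl (0.62). So were the plasminogen-binding S100a10 (0.37) and Anxa2 (0.39) and the serpins Serpinb6b (1.15) and Serpinb6a (0.30).

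**Figure D5:**
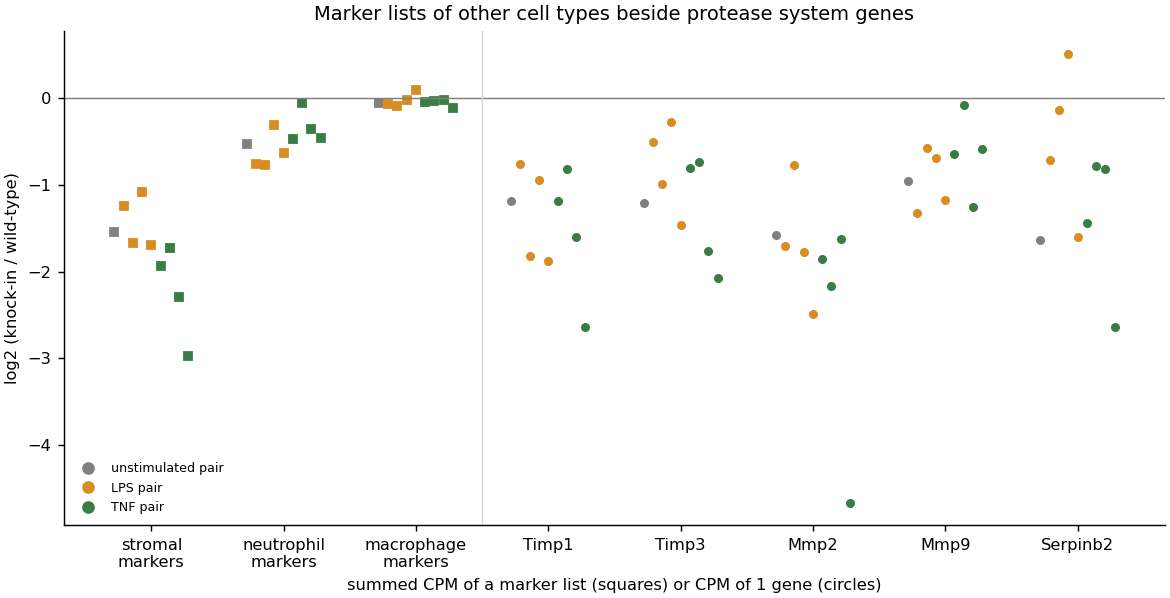
Log2 ratio of knock-in to wild-type (y axis) in each of the 9 pairs, for summed CPM of 3 marker lists (squares) and for CPM of 5 protease system genes (circles), with unstimulated pairs in grey, LPS in orange and TNF in green. The macrophage sums lie near 0 (ratios of 0.927 to 1.07) and below it in 8 of 9 pairs. The stromal and neutrophil sums, Timp1, Timp3, Mmp2 and Mmp9 lie below 0 in all 9 pairs, and Serpinb2 in 8.

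The genes whose log2 CPM followed each of the 9 most closely over the 18 libraries are given as a description. Differences in genotype, stimulus and depth between the libraries enter each r. For Mmp12 they were Spp1 (osteopontin, Pearson's r = 0.971), Ctsl (0.959) and Hexa (0.943), and for Mmp13 Ddx6 (0.976), B4galt5 (0.961) and Brd2 (0.955). For Mmp14 they were Fabp3 (0.983), the liver X receptor gene Nr1h3 (0.983) and Mrpl52 (0.971). Mrpl52 ends 1856 bases before Mmp14 begins on chromosome 14, on the same strand, and was higher by 1.94 after LPS and 1.70 after TNF, both at 8 h. For Timp1 they included Grem1 (0.905) and Serpinh1 (0.888), and for Timp2 they were Slc17a5 (0.907), Trem2 (0.905) and Atp6v0a1 (0.890). Plau was closest to Mknk2 (0.957), Plaur to Eef1a1 (0.920), Serpinb2 to Srgn (0.893) and Mmp9 to Pla2g7 (0.732), the lowest first value of the 9.

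Among the 9 genes themselves, the closest pair was Mmp13 and Plaur (r = 0.84 over 18 libraries) and the most opposed was Mmp14 and Plau (r = -0.86). Mmp12 and Mmp13, whose gene bodies lie 61048 bases apart, had r = 0.59. Serpinb2 shares 291 exon bases on the same strand with Serpinb10, which had 37 reads in all, and Mmp12 shares 157 on the opposite strand with Mmp1b, which had none.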

How the data were processed

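Gene expression was measured by poly(A) RNA-seq (KAPA Stranded mRNA-Seq kit, single-end reads of 50 bases, per the labels' protocols). The authors deposited 1 table of raw read counts per gene for 18 libraries. Cutadapt 1.12, STAR, featureCounts 1.5.0, DESeq2 and the mm10 build are named in the submitters' processing notes, while no source used here gives the strand setting or the annotation release. The labels name no batch, animal or culture for a library.

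From these counts, genes with enough reads were kept with filterByExpr (minimum count 10, minimum total 15, by condition), leaving 11308 of 45706. Libraries were scaled by TMM, with factors from 0.568 to 1.20, the lowest in the 8 h LPS libraries of both genotypes. CPM use the scaled library sizes. Tests were edgeR 4.0.16 quasi-likelihood fits in R 4.3.3 over all 18 libraries, with Benjamini-Hochberg adjustment over all genes tested and a threshold of 0.05. With 1 library per condition and genotype, stimulus effects were fitted with genotype as a second term (8 residual degrees of freedom), and genotype within stimulus or within early and late times (6 residual degrees of freedom), so departures from these additive terms count as error. The common biological coefficient of variation was 0.111. The 4-time tests are joint tests whose fold change is that of the time with the largest change; adjusted p-values printed beside a time are of that time alone unless said otherwise.

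Alternatives were DESeq2 1.42.0 with its own size factors, DESeq2 size factors within edgeR, limma-voom (limma 3.58.1), no filter, a filter of 1 CPM in 9 libraries, library totals, and leaving out each pair of libraries. Scripts were tested on simulated data. All 9 genes are named. From each pathway list, up to 4 genes per stimulus are named that passed and changed most, among those whose log2 CPM averaged at least 1. For each of the 9 genes, the 3 tested genes with the highest Pearson's r are listed, among those whose log2 CPM averaged at least 3. 1 other pathway gene is not reported here. The members and lists were chosen with earlier results of these data known. Promoter sequences are RefSeq's for GRCm38.p6; Mmp9 and Plau had no entry.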

Additional observations from a re-analysis of the deposited data

How the results depend on the processing

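Of the values reported for the 9 genes, 721 kept their side of the threshold under the alternatives other than leaving out a pair, 18 newly passed, 14 no longer passed and 3 changed sign where one of the values compared passed. With 1 pair of libraries left out these numbers were 601, 10, 19 and 0. Among the values that kept their side, 7 and 15 changed sign without passing before or after. The 3 sign changes that involved a passing value were all in Mmp12 with library totals: LPS at 8 h gave -0.29, LPS against TNF gave -0.0248, and LPS against TNF at 8 h gave -0.60 (adjusted p = 0.0023). That scaling leaves in the shift of all genes given above, and which scaling is nearer to RNA per cell was not tested.

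Numbers of genes called for the genotype difference between LPS and TNF were 0 by edgeR, 3 with no filter and 4 by DESeq2, and 0 to 1 with a pair left out. For late against early times they were 45 by edgeR, 147 with no filter, 122 by DESeq2 and 29 with library totals, and 13 to 76 with a pair left out, while of the 9 genes DESeq2 called 1 and leaving out a pair gave 0 to 1. With a pair left out, the numbers were 581 to 1146 for genotype after LPS, 285 to 912 for genotype after TNF, 1100 to 4201 for the TNF response (lowest without the TNF 8 h pair) and 1932 to 5970 for LPS against TNF (lowest without the TNF 8 h pair, 2489 without the LPS 8 h pair). Leaving out a pair removes both libraries of a condition, so the comparison then covers fewer conditions. No paired analysis was possible because the labels carry no replicate numbers, beyond the condition term of the genotype tests, which sets the 2 genotypes of a condition side by side. Mmp9, Timp1 and Serpinb2 rest on 6 to 152 counts per library, so that differences between single libraries of these genes are imprecise. The same holds for differences that involve the lowest libraries of Mmp13 and Mmp14, with 50 and 33 counts.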
